A study of Mus musculus with 2 samples.

Results

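Genes for 10 proteins that bind long fatty acids inside cells or carry them across the cell membrane, other than the deleted transporter Mfsd2a itself, were followed in the eye cups of Mfsd2a knockout and wild-type mice at postnatal day 13. They were chosen by gene symbol, with earlier results of these data known. Included were 4 fatty acid binding proteins (Fabp3, Fabp4, Fabp5 and Fabp7). Also included were 4 fatty acid transport proteins of the solute carrier family 27 (Slc27a1 to Slc27a4). The others were the scavenger receptors Cd36 and Scarb1. These 10 genes, of 18193 with a symbol on the array, were read by 20 of its probe sets, and 0 probe sets carried a member beside another symbol. Eye cups hold retina, pigment epithelium, choroid and sclera. Each genotype was 1 Affymetrix Mouse 430 2.0 array of RNA pooled from 6 animals, wild-type or Mfsd2a KO, all of the same age. The sources used here give no strain, no sex and no account of which part of Mfsd2a is deleted.

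With 1 array a genotype there was no replicate, so each value below is a single reading of a pool and nothing was tested between genotypes. Mfsd2a had 1 probe set, at 181 in the wild-type pool and 244 in the pool labelled knockout, 1.35-fold higher, against the direction of a knockout label. Where its probes lie relative to the deletion was not analysed here, so it may check nothing. The second sample is therefore called the array labelled knockout, and all directions below rest on that label. Sex-linked transcripts also differed between the pools. The brightest Xist probe set gave 7055 in wild type but 4357 in the second pool (log2 difference -0.70). The other Xist probe sets differed by -0.98 and -0.96. Above the floor the probe sets of Uty differed by 0.86 and 1.01, that of Kdm5d by 0.88 and that of Eif2s3y by 0.65. Rod and pigment epithelium markers marked both pools as eye cup, with Sag at 18137 and 18569 and Rpe65 at 3484 and 3301. What comes from the genotype, the sexes in each pool, the dissection or the handling of the arrays cannot be told apart.

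Long fatty acids are poorly soluble in water, and cells handle them with a chain of proteins. CD36 and SCARB1 are membrane receptors of the class B scavenger family, which take up fatty acids, lipoproteins or the lipids they carry. The SLC27 proteins, also called FATPs, sit in membranes and join fatty acids to coenzyme A, which traps them in the cell. FABPs are small cytosolic proteins that shuttle fatty acids to membranes, mitochondria and nuclear receptors. The retina is rich in docosahexaenoic acid, the main polyunsaturated fatty acid of photoreceptor outer segments.

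The measured members differed little between the pools. A gene was taken as measured when its brightest probe set reached the floor on at least 1 array. The floor was the array's median over all probe sets other than controls, 94.2 in wild type and 93.4 on the array labelled knockout. By this rule 7 of the 10 members were measured: Fabp3, Fabp4, Fabp5, Fabp7, Slc27a1, Slc27a4 and Scarb1. Slc27a2, Slc27a3 and Cd36 were not. At a size of 1.2-fold, 0 measured members were higher and 0 lower on the array labelled knockout, where 1.79% of all 11567 measured genes were higher and 1.17% lower. The same was true at 1.5-fold, with 0.138% of all genes higher and 0.0865% lower. The largest difference of a measured member was that of Fabp5, 1.13-fold higher.

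FABPs hand fatty acids to PPAR nuclear receptors, which bind DNA with RXR at repeats of the motif AGGTCA. For that reason the 250 bases before the start of each member were read from the promoters of RefSeq (build GRCm38.p6), which held 7 of the 10 members and lacked Fabp4, Fabp5 and Scarb1. The motif, searched on both strands, stood in 3 of the 9 promoters of these members (Fabp7, Slc27a2 and Cd36), and in 14.0% of all 32851 promoters of the table. Each of the 3 had 1 match, on the strand opposite to the gene. It began 171 bases before the start in Fabp7, 220 in Slc27a2 and 228 in Cd36. Slc27a1 had 3 start sites, none of them with a match. Below are Fabp3, the measured member with the lowest difference and no match, Fabp7, a measured member with a match, and Cd36, often described as a PPAR target. All are written 5′ to 3′ on the strand of the gene, and capitals mark the motif. They lie at chr4:130308488-130308737 (plus strand), chr10:57784673-57784922 (plus strand) and chr5:17835897-17836146 (minus strand). A match is a description of the letters and not evidence of binding.
Fabp3: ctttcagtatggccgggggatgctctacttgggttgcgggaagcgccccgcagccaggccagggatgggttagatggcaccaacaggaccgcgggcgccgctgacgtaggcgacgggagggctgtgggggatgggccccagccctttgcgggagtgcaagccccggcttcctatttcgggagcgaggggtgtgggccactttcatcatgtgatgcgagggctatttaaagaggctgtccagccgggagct
Fabp7: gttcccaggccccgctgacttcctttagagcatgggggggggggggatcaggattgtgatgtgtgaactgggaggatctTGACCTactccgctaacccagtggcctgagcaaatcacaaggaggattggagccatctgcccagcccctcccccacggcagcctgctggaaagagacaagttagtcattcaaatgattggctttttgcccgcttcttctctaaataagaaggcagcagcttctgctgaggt
Cd36: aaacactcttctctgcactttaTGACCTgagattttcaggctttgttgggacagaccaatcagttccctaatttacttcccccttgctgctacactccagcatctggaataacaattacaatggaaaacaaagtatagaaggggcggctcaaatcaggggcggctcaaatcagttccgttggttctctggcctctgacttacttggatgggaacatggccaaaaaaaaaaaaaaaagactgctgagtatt

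Of the binding proteins, Fabp5 and Fabp7 were slightly higher on the array labelled knockout and Fabp3 and Fabp4 slightly lower. Fabp5 encodes the epidermal FABP, which is found in skin, lens, endothelium and macrophages and also binds docosahexaenoic acid. Its brighter probe set read 2496 in wild type and 2819 in the pool labelled knockout (log2 difference 0.18). The other read 842 and 930, a difference of 0.14, so both were higher by a similar amount. Fabp7, the brain FABP of radial glia, astrocytes and Mueller glia, prefers docosahexaenoic acid among its ligands. Its 1 probe set read 364 and 401 (log2 difference 0.14), so its direction has no second reading.

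Fabp3, the heart FABP of muscle and neurons, had the lowest difference of the measured members. Its brighter probe set read 784 in wild type and 706 in the pool labelled knockout. It was 1.11-fold lower, or -0.15 in log2. The dim one, below the floor, read 53.2 and 51.1 (-0.058). Both were lower, by amounts that differ.

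Fabp4, the adipocyte FABP, is also made by capillary endothelium and macrophages. One of its 4 probe sets lay above the floor and read 169 and 160 (log2 difference -0.084, 1.06-fold lower). The 3 below the floor went other ways: 1 read 55.6 and 64.7 (0.22), and for the remaining 2 the value was the same on both arrays, 31.9 and 17.8. Such identical values were shared by 2158 probe sets other than controls (4.79%), of which 77.6% lay below the floor. The direction of Fabp4 therefore rests on 1 probe set.

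**Figure D1:**
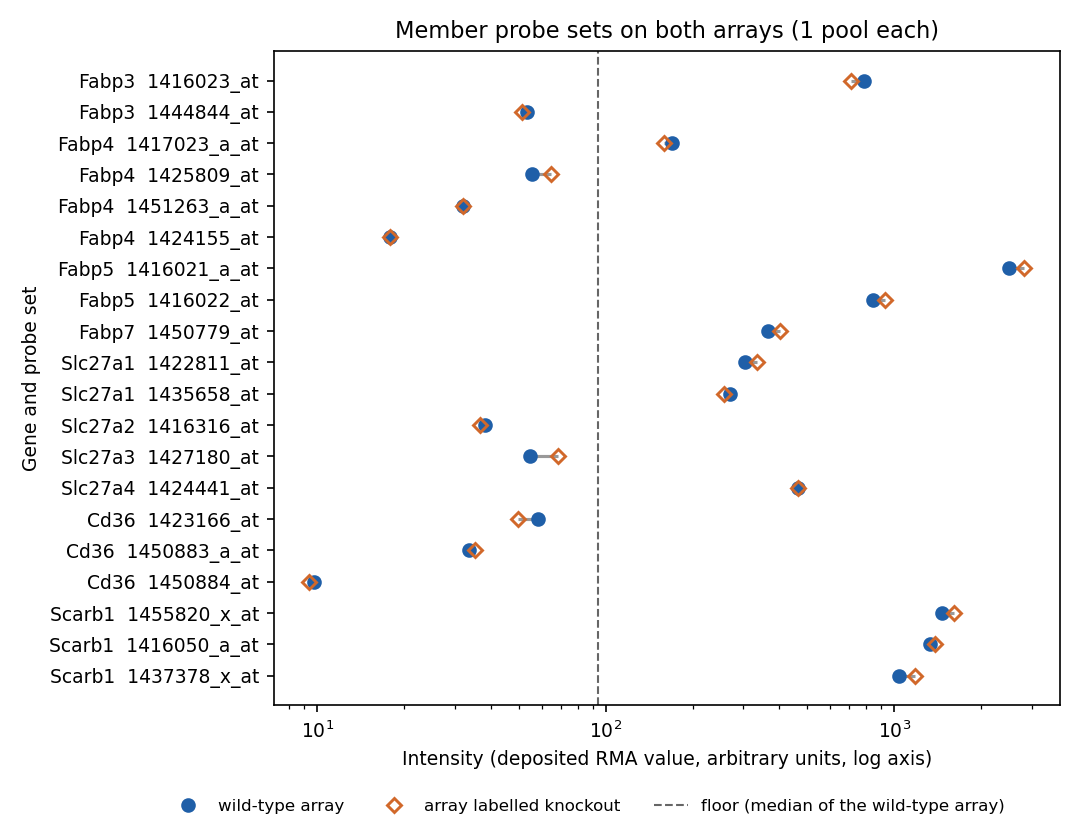
Intensity of each member probe set in wild type (filled circles) and in the pool labelled knockout (open diamonds), on a log axis, with the floor of the wild-type array at 94.2 as a dashed line. Each gene's probe sets are ordered from the brightest, and in all 20 the symbols for the 2 arrays lie close together, while all probe sets of Slc27a2, Slc27a3 and Cd36 lie left of the floor.

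The transport proteins gave no common direction. Slc27a1 encodes FATP1, known from muscle and fat and, in the eye, from pigment epithelium, where it can inhibit the visual cycle enzyme RPE65. Its brighter probe set read 304 in wild type and 336 in the pool labelled knockout (log2 difference 0.14). The other, also above the floor, read 270 and 257, or -0.074. The probe sets of Slc27a1 thus had opposite signs, and their mean was 0.035. Slc27a4 encodes FATP4, which is needed for the skin barrier and can also inhibit RPE65. It read 463 and 466, a log2 difference of 0.0098, the closest to 0 of the measured members. Its sign turned to negative when differences were centred or a trend with level was removed.

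The other transport proteins lay below the floor on both arrays. Slc27a2, a very long chain acyl-CoA synthetase of liver and kidney, read 38.1 in wild type and 36.6 on the array labelled knockout (-0.057). Slc27a3, the least studied of the family, read 54.5 and 68.3. Its log2 difference of 0.33, or 1.25-fold higher, was the largest of the 20 member probe sets. It was 1 of 20 at least 1.2-fold higher, and 0 of 20 were as much lower, where with no floor 2.65% of all probe sets were higher and 3.94% lower. Its level lay well under the floor, so the size of this difference has little signal behind it.

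Among the scavenger receptors, Scarb1 was read brightly and Cd36 was not. Scarb1 encodes SR-BI, the receptor for high density lipoprotein, which also takes up carotenoids in pigment epithelium. Its 3 probe sets read 1465 and 1613 (log2 difference 0.14), 1329 and 1388 (0.062), and 1036 and 1179 (0.19). All 3 were higher on the array labelled knockout. Probe sets ending in _x_at can cross-hybridise. The brightest and the dimmest have that ending, and the one without it had the smallest difference, 0.062.

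Cd36, the fatty acid translocase of muscle, fat, capillaries and macrophages, also binds shed outer segments at the pigment epithelium. Its 3 probe sets lay below the floor on both arrays. They read 58.0 and 49.5 (log2 difference -0.23), 33.5 and 35.2 (0.074), and 9.72 and 9.39 (-0.050). No direction can be read from these values, which is a limit of signal and not a sign that the gene was silent.

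**Figure D2:**
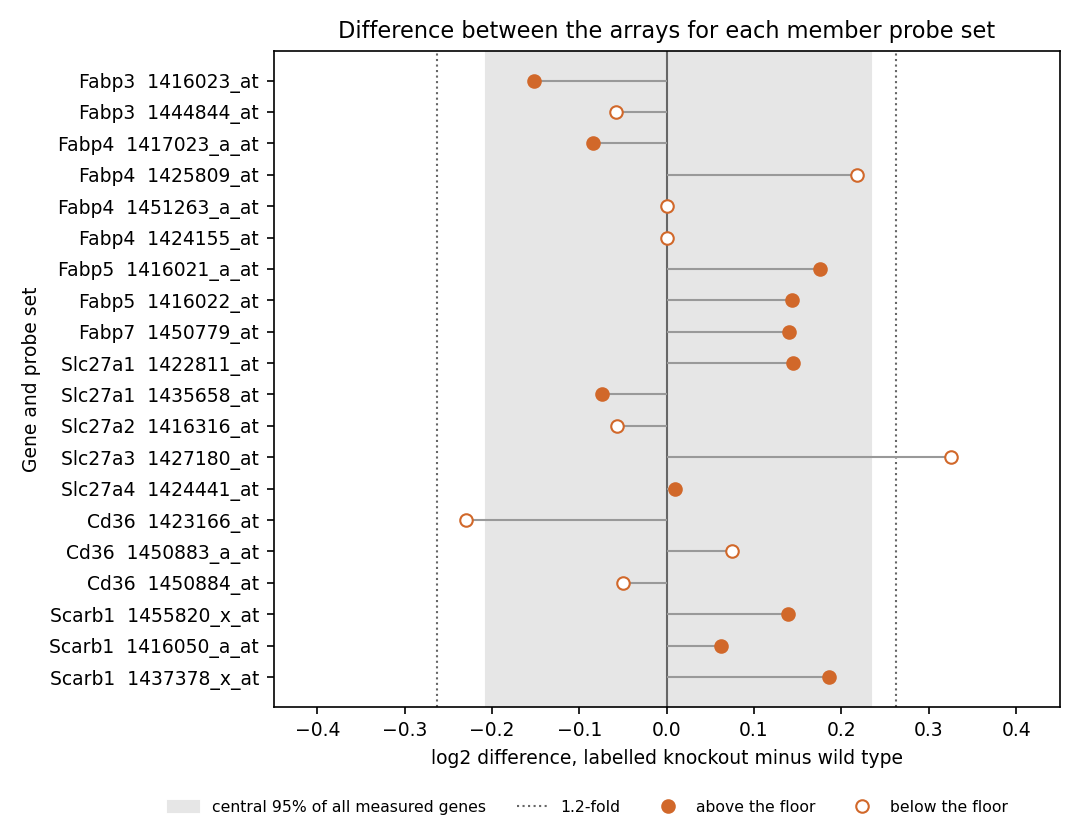
Log2 difference (labelled knockout minus wild type) of each member probe set, filled where the probe set is above the floor and open where it is below, with the central 95% of all measured genes (-0.21 to 0.23) shaded and 1.2-fold dotted. All 11 filled points lie inside the shaded range, and the open point of Slc27a3 at 0.33 is the one past the dotted lines.

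As a group, 5 of the 7 measured members were above 0 and 2 below, with a median log2 difference of 0.14. Over all measured genes 55.8% were above 0 and the median was 0.014. Of the 11 member probe sets above the floor, 8 were above 0 and 3 below. At 1.1-fold, a size of 0.138 on the log2 scale, 4 of the 7 were higher (Fabp5, Slc27a1, Fabp7 and Scarb1) and 1 was lower (Fabp3). Of all measured genes, 9.80% were at least that much higher and 6.60% lower. Slc27a1, Fabp7 and Scarb1, at 0.14 each, lie just past that size. When differences were centred on the median of the measured probe sets, or a trend with level was removed, 1 member was at least 1.1-fold higher, Fabp5. In both settings 1 was as much lower, Fabp3, and 4 members were above 0 and 3 below. After centring, 7.772% of all measured genes were at least 1.1-fold higher and 7.997% lower. After removal of the trend these shares were 8.127% and 7.798%. With the mean of each gene's probe sets 2 members were as much higher (Fabp5 and Fabp7) and 1 was lower (Fabp3). The shares of all measured genes were then 8.654% and 6.095%, and the median of the members was 0.035.

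The technical spread gives a scale for these sizes. Among 5198 genes with more than 1 probe set above the floor, the SD of the differences of probe sets of the same gene was 0.0886, and 45.6% of these genes had probe sets of both signs. It covers disagreement between probe sets and not the spread between animals. Bright genes varied less, so each member was also set beside the 500 measured genes nearest to it in level. Fabp5, at 0.176, lay just outside the central 95% of its neighbours, which ran from -0.152 to 0.167. Fabp3, at -0.1517, lay just inside its own range, -0.1524 to 0.191. The other 5 lay inside theirs, Scarb1 at 0.14 within -0.157 to 0.186 and Fabp7 at 0.14 within -0.18 to 0.21. Among all measured genes, Fabp5 stood at percentile 94.5 and Fabp3 at percentile 5.37. These places describe 2 arrays and are not tests.

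**Figure D3:**
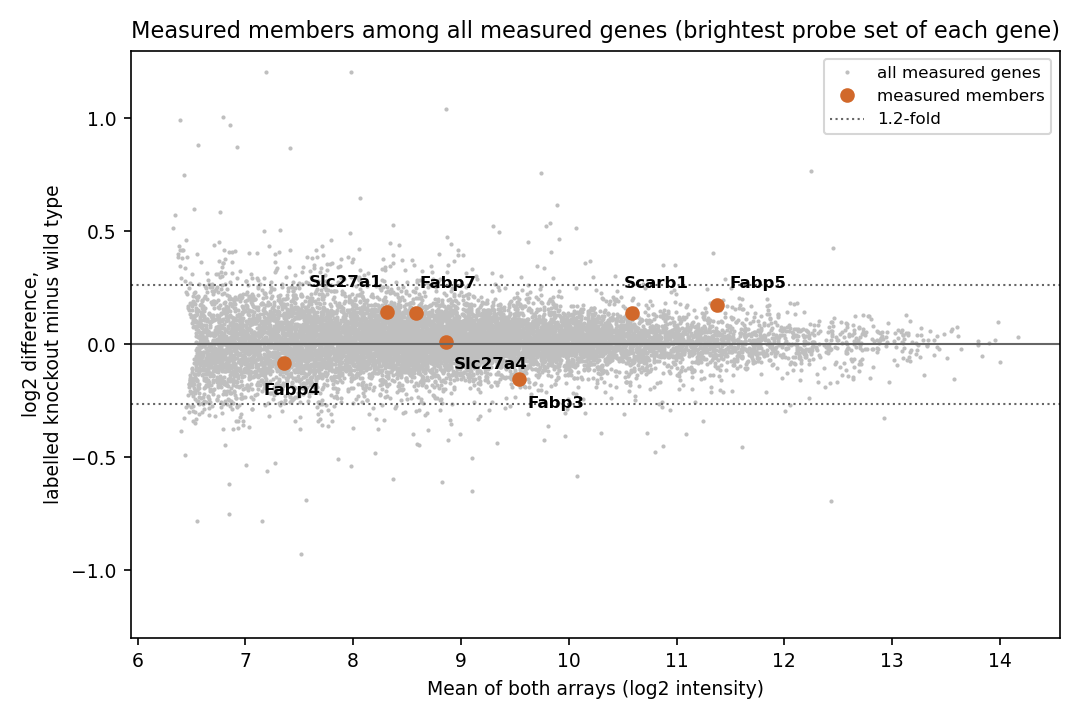
Log2 difference against mean level (log2 intensity of both arrays) for the brightest probe set of each of the 11567 measured genes (grey) and of the 7 measured members (orange), with 1.2-fold dotted. The members span dim to bright levels, from Fabp4 to Fabp5, and all lie between -0.15 and 0.18, inside the dotted lines.

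Several relatives lie beside the members on the chromosomes. In the RefSeq gene order of GRCm38.p6, the 5 protein-coding genes Fabp5, Pmp2, Fabp9, Fabp4 and Fabp12 follow each other on chromosome 3. Fabp12, a little studied FABP, was read above the floor at 1386 in wild type and 1321 on the array labelled knockout (log2 difference -0.069). Pmp2, the FABP of peripheral myelin (52.4 and 53.3), and Fabp9, the testis FABP (21.8 and 26.2), were below it. The cluster therefore held measured genes on both sides of 0. Fabp3 shares chromosome 4 with Mfsd2a, with 119 protein-coding genes between them. Of these 76 were measured, with 3 higher and 1 lower by 1.2-fold or more, beside 1.79% and 1.17% of all measured genes. Their median was 0.040, beside 0.014.

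Other genes that supply, activate, store or burn fatty acids were described from 9 lists with 80 different genes. Of these 58 were measured, 32 above 0 and 25 below, with a median log2 difference of 0.019 against 0.014 for all measured genes. By 1.2-fold or more, 6 of these were higher and 3 lower, beside 1.79% and 1.17% of all measured genes. At 1.5-fold 0 were higher and 1 was lower. Mfsd2a itself is among the 6. Genes such as Acsl1, Mfrp and Slc27a6 had no probe set with that symbol alone and were not analysed here.

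Among close relatives, the retinoic acid binding protein gene Crabp1 read 518 and 579 (log2 difference 0.16). It and Fabp12 were the 2 measured of 11 listed members of the intracellular lipid binding family. Scarb2, a lysosomal relative of Scarb1, differed by -0.0095, and Slc27a5 was below the floor. In the list of fatty acid activation and acyl-CoA binding 7 of 9 measured genes were above 0, with a median of 0.063. Acsl4, a synthetase that prefers arachidonic acid and other polyunsaturated fatty acids, read 430 and 555 (0.37), with its other probe set above the floor at 0.28. Acsl3, a synthetase linked to lipid droplets, differed by 0.20, with probe sets between 0.082 and 0.34.

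In the list of lipoprotein lipases and lipoprotein receptors 5 of 9 measured genes were above 0 and 3 below, with a median of 0.060. Angptl4, an inhibitor of lipoprotein lipase and a PPAR target, read 187 in wild type and 109 on the array labelled knockout (-0.78); its probe set ends in _s_at and may read other transcripts. Lipg, the endothelial lipase, read 71.8 and 97.2 (0.44), and in wild type it was under the floor. They were the 2 genes of this list past 1.2-fold, and they differed in sign. Among caveolar and membrane partners of the receptors 3 of 7 were above 0, with a median of -0.044. The caveolar coat genes Cavin1 (-0.17) and Cav2 (-0.11) had the largest differences there.

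The receptors to which FABPs deliver ligands differed little, with 4 of 7 measured PPAR, RXR and coactivator genes above 0 and a median of 0.0069, whose sign turned under other settings (-0.039 to 0.0069). Ppard, the PPAR most widely expressed, differed by 0.20, read from 1 probe set. Ppara differed by -0.11, but its 3 probe sets ran from -0.11 to 0.11. Pparg, the adipocyte receptor, was below the floor at 23.2 and 18.7. In the droplet list 4 of 8 were below 0, with a median of -0.026, which also turned (-0.073 to 0.021). Mgll, which releases fatty acids from monoglycerides, read 2000 and 1666 (-0.26), with 3 probe sets from -0.26 to -0.21. Plin2, a coat protein of lipid droplets and a PPAR target, read 432 and 364 (-0.24). For entry into mitochondria 6 of 8 were below 0, with a median of -0.040. The oxidation enzyme Acadl differed by -0.32 and the acylcarnitine carrier Slc25a20 by -0.23.

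The list of docosahexaenoic acid handling in the retina had the highest median of the 9, 0.43. That list was written with earlier results of these data known, so its place among the 9 is a description only. Of its 7 measured genes 6 were above 0 and 4 at least 1.2-fold higher, beside 1.79% of all measured genes. These 4 were Mfsd2a, Rbp3 and the desaturases Fads1 and Fads2. Rbp3, at 4831 and 6495 (0.43), gave the median. With the floor at percentile 70 the median was 0.31. Fads1 read 736 and 1058 (0.52), with its other probe set above the floor at 0.30. Fads2 read 672 and 921 (0.45), with 3 probe sets from 0.45 to 0.49. The elongases of the same list were closer to 0, Elovl2 at 0.19 and Elovl4 at 0.042. Fads1 and Fads2 thus lay further from 0 than any measured member, a difference that was not tested.

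**Figure D4:**
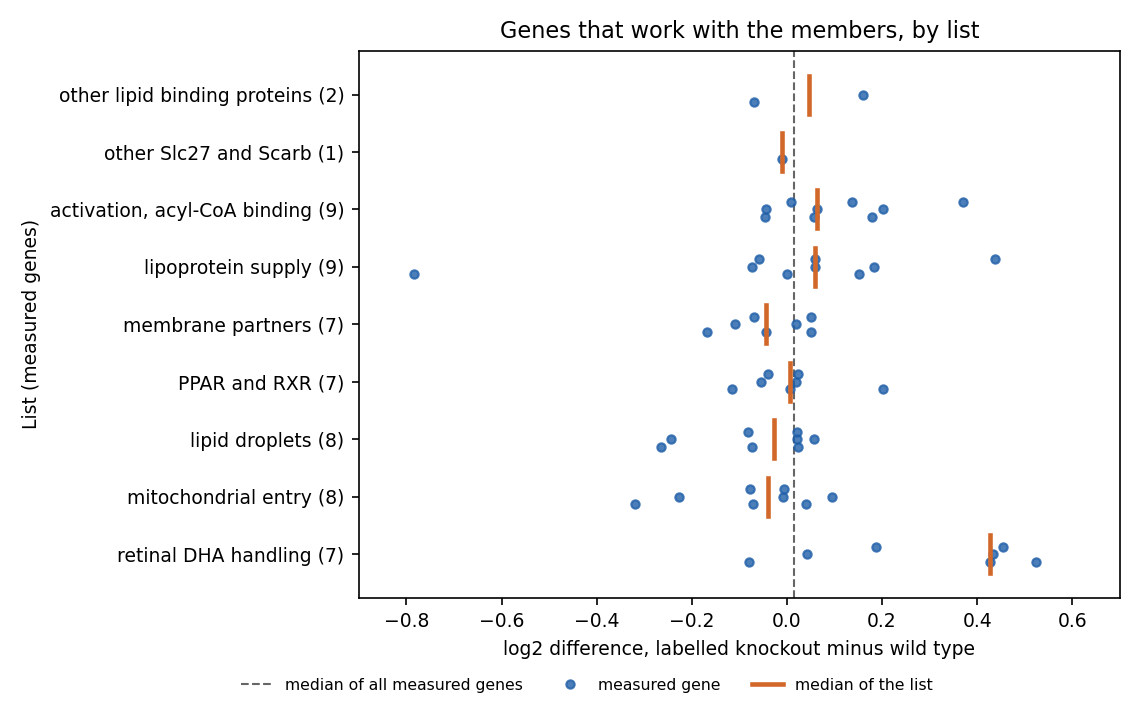
Log2 difference (labelled knockout minus wild type) of each measured gene (blue) in 9 lists of genes that work with the members, with the median of each list as an orange bar and the median of all measured genes (0.014) as a dashed line. Numbers in brackets are measured genes. List medians lie between -0.044 and 0.063 apart from that of retinal DHA (docosahexaenoic acid) handling at 0.43, and Angptl4 is the point at -0.78.

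Markers of the cells that make these proteins differed between the pools too, and in bulk tissue fewer cells of a type and less RNA per cell cannot be told apart. Beside Fabp3, which muscle expresses strongly, 5 of 7 measured muscle markers were below 0 with a median of -0.23. Their summed intensity over the 8 with a probe set was 2923 in wild type and 2712 on the array labelled knockout. Ckm, the muscle creatine kinase, differed by -0.34, whereas the actin Acta1 differed by 0.029. Beside Fabp5, Fabp4 and Cd36, all found in macrophages, all 6 measured microglia and macrophage markers were above 0 (median 0.38, summed intensity 2195 and 2552). Among them were Cx3cr1 at 0.41 and C1qa at 0.45. Fabp5 was above 0 too, whereas Fabp4 was below 0 and Cd36 was not measured. All 3 measured lens markers, set beside Fabp5, were above 0 (median 0.14, summed intensity over 6 genes 1334 and 1500.5). Among them were the crystallins Cryaa at 0.35 and Crygd at 0.14. Keratinocytes also make Fabp5, and the markers of cornea, conjunctiva and other keratinocytes went the other way. All 4 measured were below 0, with a median of -0.45 and a sum of 909 and 710, and with Krt5 at -0.33 and Krt12 at -0.11. Lens and cornea are not among the eye cup tissues named at the start.

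Beside Fabp7, 5 of 6 Mueller glia markers were below 0, with a median of -0.051 and a sum of 23648 and 22903. Glul, the glutamine synthetase, differed by -0.041, with its other probe set at -0.16. Slc1a3, the glial glutamate transporter, differed by 0.036, but its 5 probe sets above the floor ran from 0.016 to 0.44. In the list of progenitors and astrocytes the 2 measured markers had opposite signs, Nes at -0.041 and Aldh1l1 at 0.34. Beside Fabp4, Cd36 and Fabp5, 5 of 7 endothelial markers were below 0 and 1 above (median -0.052, sum 3168 and 3015). Pecam1 differed by -0.14 and Cdh5 by -0.018. Fabp4 was below 0 as well, whereas Fabp5 was above 0. Of 4 adipocyte markers with a probe set, Retn was measured, with a difference of 0.048. Adipoq, the adiponectin gene that defines fat cells, was far below the floor at 15.4 and 10.2. Beside Slc27a1, Slc27a4 and Scarb1, 4 of 5 measured pigment epithelium markers were below 0, with a median of -0.30 and a sum of 28277 and 26573. Rpe65 differed by -0.078 and Lrat by -0.31, while Scarb1 was above 0 in all its probe sets. Intensities have no true 0, so no marker was at 0 on either array. The part of these cells in the members' differences was not tested.

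**Figure D5:**
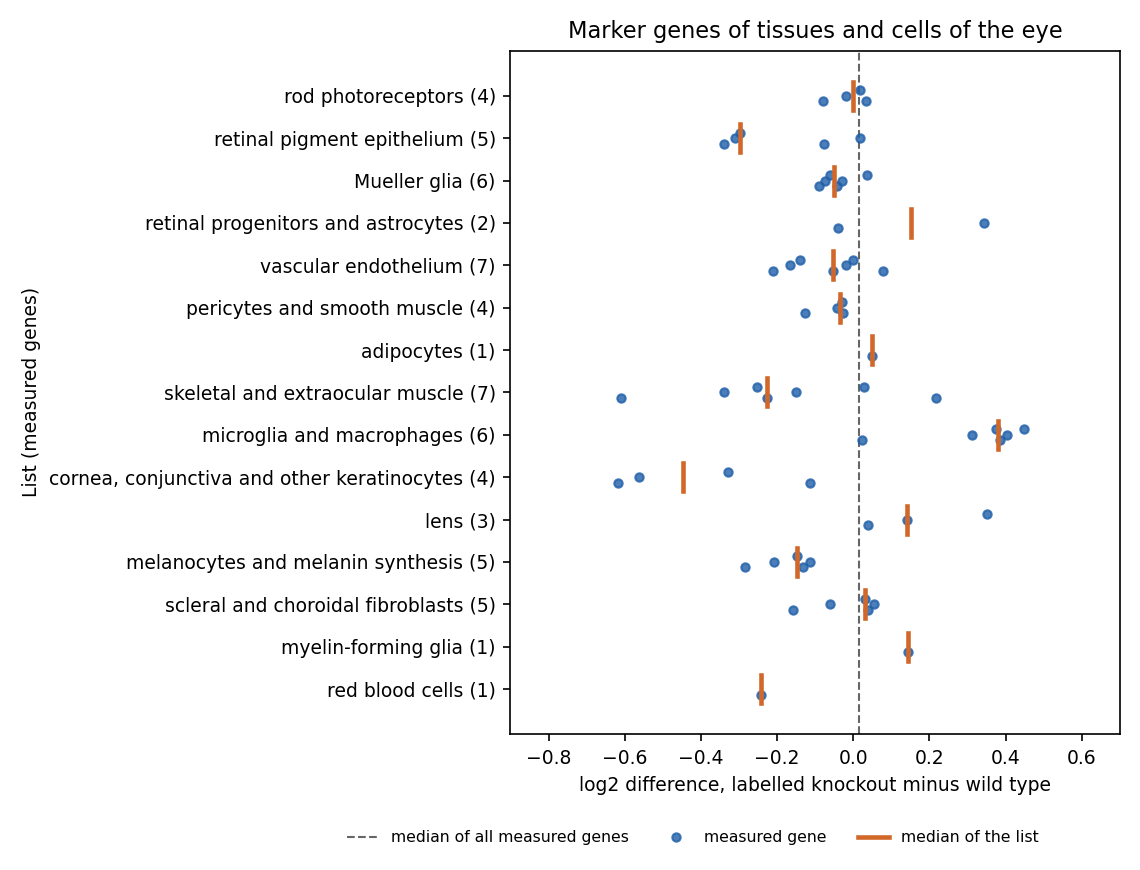
Log2 difference (labelled knockout minus wild type) of each measured marker gene (blue) of 15 cell types or tissues of the eye, with the median of each list in orange and the median of all measured genes (0.014) dashed. Numbers in brackets are measured genes, and lists range from cornea, conjunctiva and other keratinocytes at -0.45 to microglia and macrophages at 0.38.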

How the data were processed

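Total RNA of 2 pools, each from 6 animals with a RIN (RNA integrity) cut-off of 7.0 per the labels, was read on 1 array a genotype. The authors deposited 1 intensity for each of 45101 probe sets, on a linear scale as the values show. Partek 6.6 and RMA (robust multi-array averaging) are named in the submitters' processing notes, with no settings. RMA as usually run brings arrays to a shared distribution, so a shift of all genes could not be seen.

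Probe sets with 1 symbol in the platform annotation were used. Base 2 logarithms were taken, and each gene was read from its brightest probe set above the floor. With 1 array each there was no test. Genes were counted at 1.2-fold, with 1.1-fold and 1.5-fold beside it. Named are all members, the 2 measured genes with the largest differences in each related list, relatives next to a member, and the first 2 genes of marker lists set beside a member. A few further genes (Sag, Rbp3, Elovl2, Elovl4, Pparg, Slc27a5, Aldh1l1, Retn) were named after their values were seen. Members, lists and sizes were chosen with earlier results of these data known. Alternatives were to drop the floor, to raise it to percentile 70, the mean or the largest difference of a gene's probe sets, no _s_at or _x_at probe sets, centring, and removal of a loess trend (span 0.3, 3 iterations). Steps ran in Python 3.11.15, numpy 2.4.6, pandas 2.3.3 and statsmodels 0.14.6, and were tested on simulated data. The differences put into those data were larger than that of any measured member, so recovery of small differences was not tested. The number of arrays limits the precision.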

Additional observations from a re-analysis of the deposited data

How the results depend on the processing

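With 1 array a genotype no test was possible, paired or not, and the labels give no number shared by the pools. The counts of 0 members at least 1.2-fold higher and 0 lower became 4 and 1 at 1.1-fold. At that size 9.80% of all measured genes were higher and 6.60% lower. With no floor 1 member was at least 1.2-fold higher, Slc27a3, which the floor had left out. The share of all genes was not counted at that size with no floor. Over all probe sets, a different unit, 2.65% were at least 1.2-fold higher and 3.94% lower. The members' median of 0.14 became 0.035 with the mean of each gene's probe sets, where the opposite signs in Slc27a1 meet. It was 0.062 without _s_at and _x_at probe sets, 0.074 with no floor, 0.12 after centring or removal of the trend, and 0.14 under the remaining settings. Across the 7 alternatives to the reading of differences, 6 of the 7 measured members kept their sign wherever they were measured. Slc27a4 changed sign, with a range from -0.010 to 0.0098. Fabp5 ranged from 0.16 to 0.18, Fabp3 from -0.17 to -0.15 and Scarb1 from 0.062 to 0.19. Of the 9 lists of related genes 4 had medians that changed sign: other lipid binding proteins, other Slc27 and Scarb genes, PPAR and RXR, and lipid droplets. The median of docosahexaenoic acid handling in the retina kept its sign and ranged from 0.31 to 0.43. Low signal limits Cd36, Slc27a2 and Slc27a3.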
